A study of Homo sapiens with 37 samples.

Results

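GDF15 (growth differentiation factor 15, ENSG00000130513) was followed as 1 gene of the 57773 gene identifiers counted, in all 37 libraries of a study of cellular senescence in cultured human endothelial cells and lung fibroblasts. It was taken by its symbol, with earlier results of these data known. GDF15 encodes a secreted protein of the transforming growth factor beta (TGF-beta) superfamily. Its precursor is cut by furin-like proprotein convertases, and the circulating protein acts through the receptor GFRAL with the co-receptor RET in the hindbrain, where it lowers food intake. In many cell types the gene is a target of the stress factors ATF4 and CHOP, and it is often listed among the proteins that senescent cells secrete.

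Total RNA was sequenced after ribosomal RNA was removed, in 17 groups of 2 or 3 libraries. Human aortic endothelial cells (HAEC, population doubling level 4 to 6) were irradiated with 4 Gy in 3 libraries and left as controls in 2. Human umbilical vein endothelial cells (HUVEC, population doubling level 3 to 5) were irradiated with 4 Gy in 3 libraries and left as controls in 3. IMR-90 diploid lung fibroblasts were irradiated with 10 Gy at population doubling level 15, grown to level 52 (PDL52), or left proliferating at level 15 (PDL15), with 2 libraries each. WI-38 diploid lung fibroblasts at population doubling level 25 make up 2 sets. The first set holds 24 h of 2 µg/mL doxorubicin against its control, and a lentivirus for HRAS(G12v) against the empty vector, both at a multiplicity of infection of 10 and under 1 µg/mL puromycin. The second set, with 12 libraries, holds a repeat of the same doxorubicin treatment and its control, cells irradiated with 10 Gy and their control, and replicatively exhausted cells at level 53 to 55 against proliferating cells. The labels give no harvest time after treatment, and they do not say that replicates came from separate cultures. Each p-value and standard error therefore reflects only how far the libraries fitted together spread. That fit includes groups of the same set outside the comparison, so it is not the spread of the compared libraries alone.

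Library totals lay between 102293388 and 370996204 counts, of which 1885 to 240870 fell on GDF15. The second WI-38 set stood apart: protein-coding genes took 82.0% to 91.1% of its counts and mitochondrial genes 3.21% to 14.02%, against 50.7% to 66.9% and 0.101% to 0.607% in the other 25 libraries. Levels set across that border therefore compare libraries of unlike make-up. Summed levels of 9 endothelial markers were 1476 to 1845 CPM in HAEC and HUVEC and 54.5 to 312.7 CPM in fibroblasts, and those of 9 fibroblast markers were 1482 to 14987 CPM in fibroblasts and 154.0 to 300.8 CPM in endothelial cells. CPM is the count relative to library size, scaled over all 37 libraries by edgeR's TMM method, and is not divided by gene length. Leukocyte markers summed to at most 5.96 CPM and epithelial markers to at most 1.01 CPM. Within IMR-90, the PDL15 libraries stood apart, with fibroblast markers at 14056 to 14987 CPM, against 3364 to 5440 CPM in the irradiated and PDL52 libraries, and the part of this in the comparisons with PDL15 was not tested.

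The gene lies on chromosome 19 on the plus strand. In GENCODE 29 on GRCh38 it spans chr19:18374731-18389176, and its main transcript, chr19:18386158-18389176, has 2 exons with 1200 bases in all. The counts were made on hg19, so these positions place the gene but were not used for counting. No exon of another annotated gene overlapped its exons, and 11 of its 2084 stretches of 31 bases (0.528%) also occurred in another gene. The hairpin of a microRNA (MIR3189, chr19:18386562-18386634) lies between the 2 exons. Short stretches around the start of the main transcript are shown from RefSeq (GRCh38.p14, plus strand) because they hold core promoter letters. The capitals mark a TATA box (TATAAA) and the GC box bound by SP1 (GGGCGG, read on the minus strand as CCGCCC).
start region, chr19:18386128-18386157: cTATAAAggccggtccggcagcatctggtc
distal GC box, chr19:18386034-18386049: agaccCCGCCCagctg
proximal GC box, chr19:18386083-18386098: gaggaGGGCGGgactg

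Of 35116 RefSeq promoter windows of 300 bases, 11.5% held TATAAA and 45.0% held GGGCGG on either strand. A further 5 motifs were searched on both strands of the GDF15 window and not found: the AP-1 site TGANTCA (in 7.71% of windows), the cAMP response element TGACGTCA (1.85%), the ATF4 and C/EBP composite TTGCATCA (0.866%), the EGR1 site GCGNGGGCG (9.43%) and the E-box CACGTG (7.26%). These letters describe this window only.

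GDF15 was called higher in 6 of the 9 comparisons of a treated or late-passage group with its control. The 6 were radiation in HAEC, HUVEC, IMR-90 and WI-38, the first doxorubicin treatment, and HRAS. It was not called in late-passage IMR-90, in the repeat doxorubicin treatment or in replicative exhaustion of WI-38. Calls are Benjamini-Hochberg adjusted p-values below 0.05 over all genes tested, from edgeR's quasi-likelihood test. Fold changes are on the log2 scale, with a standard error (SE) and, where given, a 95% interval. Calls depend on spread as well as size, and the fits differed in spread. The coefficient of variation in edgeR was 5.69% in HAEC, 6.94% in HUVEC and 8.41% in IMR-90. In WI-38 it was 16.3% for HRAS and the first doxorubicin treatment, and 38.1% for the repeat, radiation and replicative exhaustion. The SE was 0.04 in irradiated HUVEC (0.77, called) and 0.25 in replicative exhaustion (0.70, not called). A missing call does not show that GDF15 was unchanged.

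**Figure D1:**
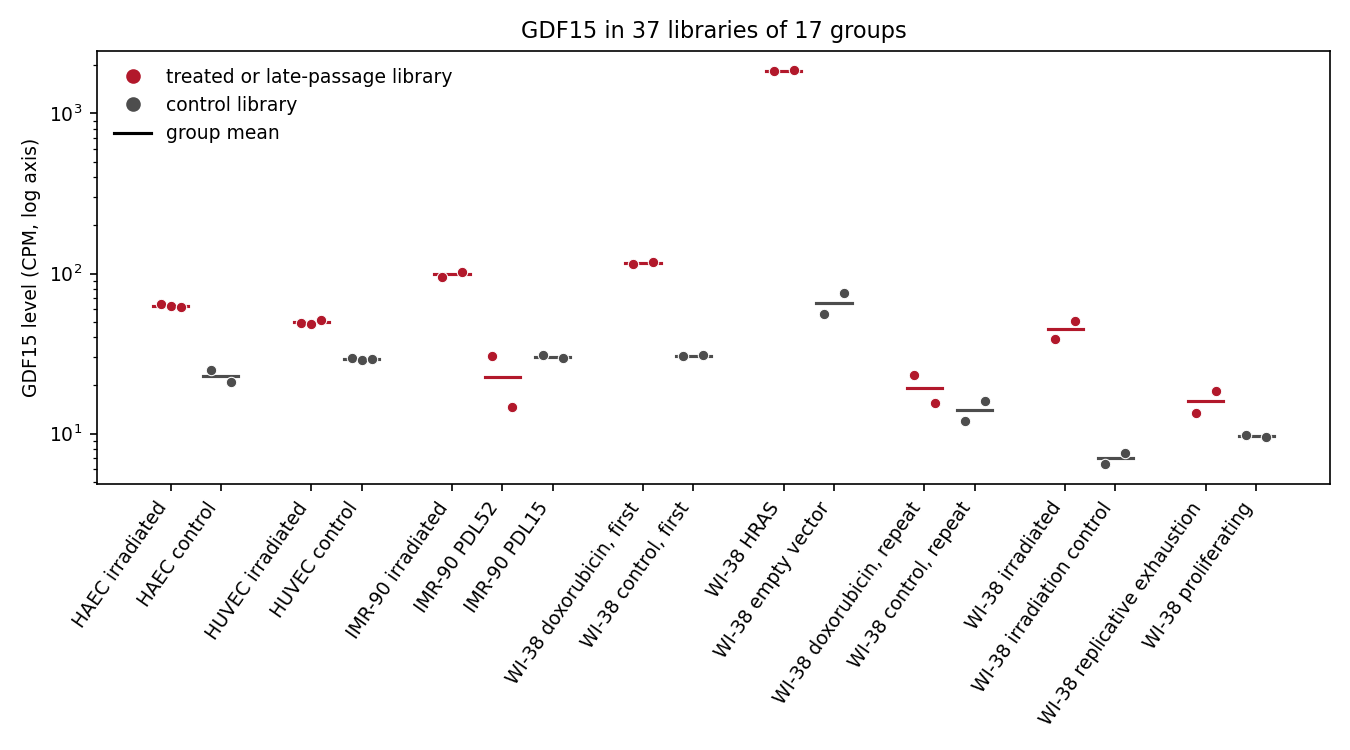
GDF15 level in CPM on a log axis, 1 point per library and a line at each group mean, with each treated or late-passage group left of its control. The HRAS libraries sit at 1838 and 1856 CPM, and the 2 PDL52 libraries at 30.5 and 14.7 CPM.

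The HRAS comparison had the largest GDF15 fold change of the 9. Cells with HRAS(G12v) held 1838 and 1856 CPM of GDF15, against 56.0 and 75.8 CPM in empty vector cells. The HRAS libraries lay far above every other library, and the groups did not overlap. In such bulk libraries fewer cells of a type and less RNA per cell cannot be told apart. Summed fibroblast markers were 1482 to 1673 CPM in HRAS cells, against 7878 to 9734 CPM in empty vector cells, and smooth muscle markers 28.8 to 34.8 CPM in HRAS cells, against 143.7 to 186.2 CPM in empty vector cells. Their part in the GDF15 result was not tested. The log2 fold change was 4.96 ± 0.16 (SE, 95% interval 4.62 to 5.30, n = 2 each, edgeR adjusted p = 1.54e-09), a 31.1-fold difference. HRAS itself, the gene delivered, stood at 2147 and 2222 CPM in HRAS libraries, against 43.2 and 59.2 CPM in empty vector libraries. In this comparison 45.9% of genes were called, and 456 of 29380 tested genes had a larger log2 fold change than GDF15. The HRAS response exceeded the first doxorubicin response by 3.00 ± 0.19 (SE, edgeR adjusted p = 4.30e-07), with 35.6% of genes called.

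The empty vector control was itself higher in GDF15 than the untreated control of the same set. It held 56.0 and 75.8 CPM, against 30.5 and 30.8 CPM in untreated WI-38, with no overlap. The difference was 0.97 ± 0.13 on the log2 scale (SE, n = 2 each, edgeR adjusted p = 3.02e-04) where 37.5% of genes were called. Vector cells differ from untreated cells by the virus and by puromycin, which cannot be told apart. CDKN1A, the cell cycle inhibitor p21, was also higher in empty vector cells (log2 fold change 1.31), while MDM2, a ubiquitin ligase induced by DNA damage, was lower (-0.50), and both passed the test.

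Doxorubicin, a topoisomerase poison, gave unlike GDF15 responses in the 2 WI-38 sets. In the first set GDF15 was 114.1 and 117.4 CPM in doxorubicin cells, against 30.5 and 30.8 CPM in controls, and the groups did not overlap. The log2 fold change was 1.95 ± 0.14 (SE, 95% interval 1.66 to 2.25, n = 2 each, edgeR adjusted p = 6.91e-07) where 26.8% of genes were called. In the repeat it was 23.3 and 15.5 CPM in doxorubicin cells, against 12.03 and 16.02 CPM in controls. The lower doxorubicin library lay between the controls. The repeat's log2 fold change was 0.47 ± 0.24 (SE, 95% interval -0.05 to 1.00, n = 2 each, edgeR adjusted p = 0.319) where 5.45% of genes were called. The difference of the responses, repeat minus first, was -1.45 ± 0.30 (SE, edgeR adjusted p = 0.00458) where 4.42% of genes were called.

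Other genes of the same comparisons differed between the sets as well. In the difference of the doxorubicin responses, 2.59% of genes were called higher and 1.83% lower. There, 12 of 23 ATF4 and CHOP targets were lower in the repeat and none higher, and all 12 cell-division genes were higher. All 12 fell with the first treatment, and in the repeat they fell less or did not fall. CDKN1A was at 1725 and 2020 CPM in the repeat's control cells, against 248.1 and 251.6 CPM in the first set's controls. These levels lie across the border between library sets of unlike make-up. Between the repeat's control and the proliferating cells of the same set, 0 of 33612 tested genes were called. Whether depth, library make-up or the state of the control cells had a part in the smaller GDF15 response was not tested.

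**Figure D2:**
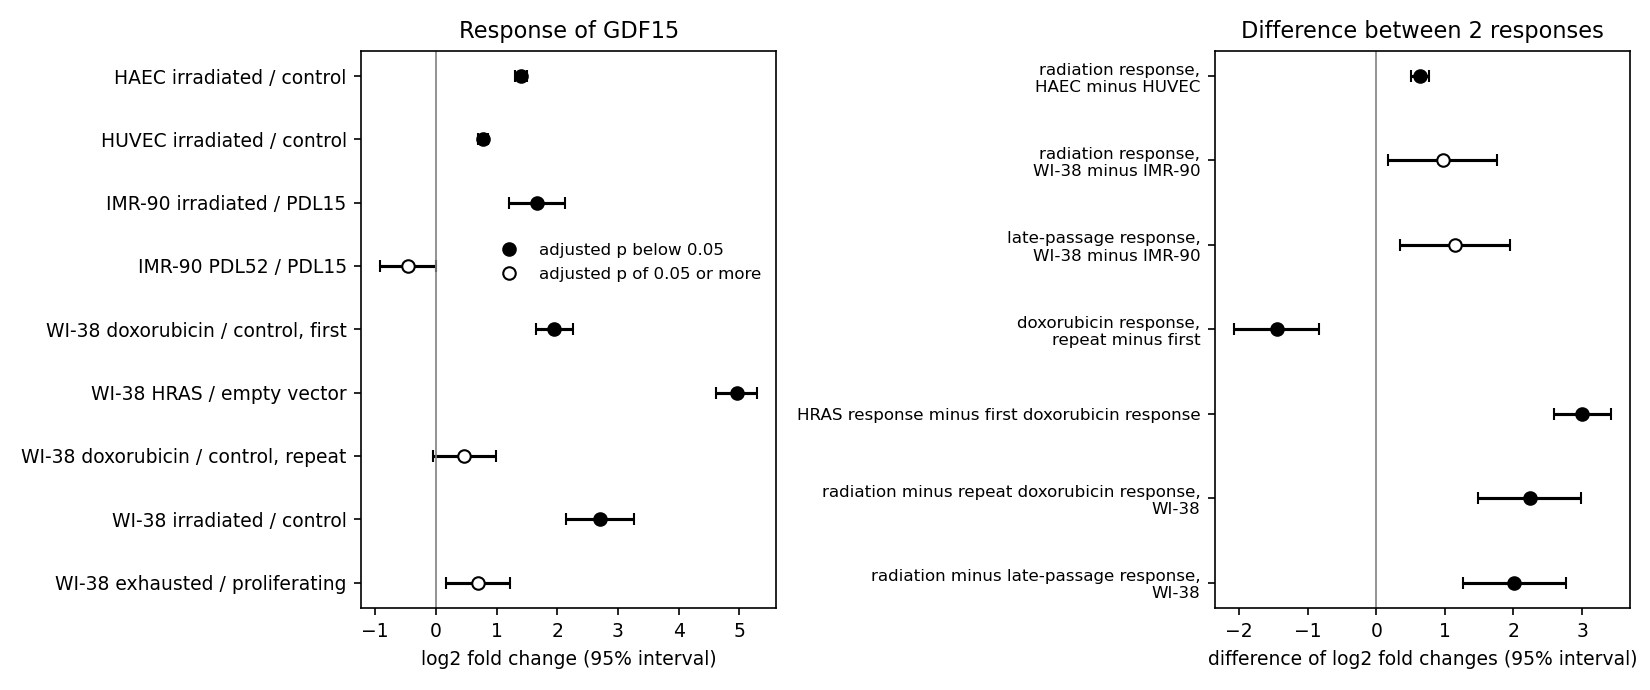
Left, the log2 fold change of GDF15 with its 95% interval in the 9 comparisons of a treated or late-passage group over its control, and right, 7 differences between a pair of responses. Filled points passed the test, 6 of 9 on the left and 5 of 7 on the right.

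Ionizing radiation raised GDF15 in all 4 cell types tested. In HAEC it was 64.2, 62.3 and 62.2 CPM in irradiated cells, against 25.1 and 20.9 CPM in controls. In HUVEC it was 48.9, 48.1 and 51.5 CPM in irradiated cells, against 29.6, 28.8 and 29.3 CPM in controls. The irradiated libraries lay above every control of their cell type. The HAEC controls differed by 1.19 times and the HUVEC control pairs by 1.01 to 1.03 times. The log2 fold change was 1.40 ± 0.05 in HAEC (SE, n = 3 and 2, edgeR adjusted p = 2.97e-15) and 0.77 ± 0.04 in HUVEC (SE, n = 3 each, edgeR adjusted p = 9.48e-14), where 39.7% and 38.7% of genes were called. HAEC responded more than HUVEC by 0.63 ± 0.06 on the log2 scale (SE, edgeR adjusted p = 2.02e-08), in a test where 18% of genes were called. With all 37 libraries in 1 fit it was 0.69 and not called (edgeR adjusted p = 0.264). Their control levels also differed, with GDF15 lower in HAEC than in HUVEC at a log2 difference of -0.31 ± 0.05 (SE, edgeR adjusted p = 8.33e-06) where 36.7% of genes were called, or -0.34 in that joint fit, where it was not called (edgeR adjusted p = 0.341).

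The fibroblasts received 10 Gy and the endothelial cells 4 Gy, so their responses are given side by side. IMR-90 held 95.8 and 102.8 CPM in irradiated cells, against 30.9 and 29.6 CPM in PDL15 cells. WI-38 held 39.1 and 50.7 CPM in irradiated cells, against 6.43 and 7.58 CPM in their controls. Mitochondrial genes took 9.71% and 14.02% of counts in these irradiated WI-38 cells, against 6.31% and 6.99% in their controls, and the part of this in the result was not tested. Neither pair of groups overlapped, and the WI-38 control of this experiment had the lowest GDF15 of all 17 groups. The log2 fold change was 1.67 ± 0.21 in IMR-90 (SE, n = 2 each, edgeR adjusted p = 1.43e-05) where 49.1% of genes were called, and 2.71 ± 0.26 in WI-38 (SE, n = 2 each, edgeR adjusted p = 7.09e-06) where 15% were called. The difference, WI-38 minus IMR-90, was 0.97 ± 0.38 (SE, edgeR adjusted p = 0.0838), and it crosses the border between the library sets (19.9% of genes called). Within the second WI-38 set, radiation raised GDF15 more than doxorubicin did, by 2.24 ± 0.35 (SE, edgeR adjusted p = 0.00351, 2.34% of genes called), and more than replicative exhaustion did, by 2.01 ± 0.35 (SE, edgeR adjusted p = 0.00268, 6.26% called).

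Long passage gave no called change. In WI-38, GDF15 was 13.49 and 18.4 CPM in replicatively exhausted cells, against 9.80 and 9.48 CPM in proliferating cells. The groups did not overlap, and the log2 fold change was 0.70 ± 0.25 (SE, 95% interval 0.17 to 1.22, n = 2 each, edgeR adjusted p = 0.0817), in a comparison where 12.6% of genes were called. It passed the threshold in 4 other fits of these libraries. In IMR-90, GDF15 was 30.5 and 14.7 CPM in PDL52 cells, against 30.9 and 29.6 CPM in PDL15 cells. PDL52 replicate 1 lay between the controls, and replicate 2 lay below both. The log2 fold change was -0.46 ± 0.21 (SE, 95% interval -0.92 to -0.00334, n = 2 each, edgeR adjusted p = 0.0889) where 50.1% of genes were called. It passed the threshold in other fits of these libraries, with library totals, with protein-coding totals and with no filter. Without PDL52 replicate 1 it was -1.09 and without replicate 2 it was -0.030. With 1 library left in a group, the spread comes from the other groups alone, so no p is read from these values. The late-passage responses, WI-38 minus IMR-90, differed by 1.14 ± 0.38 (SE, edgeR adjusted p = 0.0588) where 11.9% of genes were called, and by 1.81 without PDL52 replicate 1.

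The PDL52 libraries differed in GDF15 by 2.04 times, the widest gap of any replicate pair. Their unlike levels were known when the pair was singled out, so its rank is a description. The other 22 replicate pairs differed by 1.00 to 1.48 times. Of 15955 genes with a mean of at least 1 CPM, 0.132% had a larger ratio between these libraries in either direction, and the central 90% of genes lay between -0.28 and 0.25 on the log2 scale. Replicate 1, with more GDF15, was also higher in 11 of 12 cell-division genes, with a median log2 ratio of 0.16, where the median of all genes was -0.014. Replicate 1 was higher in 7271 of all 15955 genes and in 6 of 23 ATF4 and CHOP targets, whose median log2 ratio was -0.12. Replicate 2 was higher in 15 of 18 secreted senescence factors. Outside that list, the pentraxin PTX3 was 33.1 CPM in replicate 1 and 79.6 CPM in replicate 2, and the bone morphogenetic protein BMP2 was 13.9 CPM in replicate 1 and 32.5 CPM in replicate 2. Both were named here for their wide gaps, after their values were seen.

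**Figure D3:**
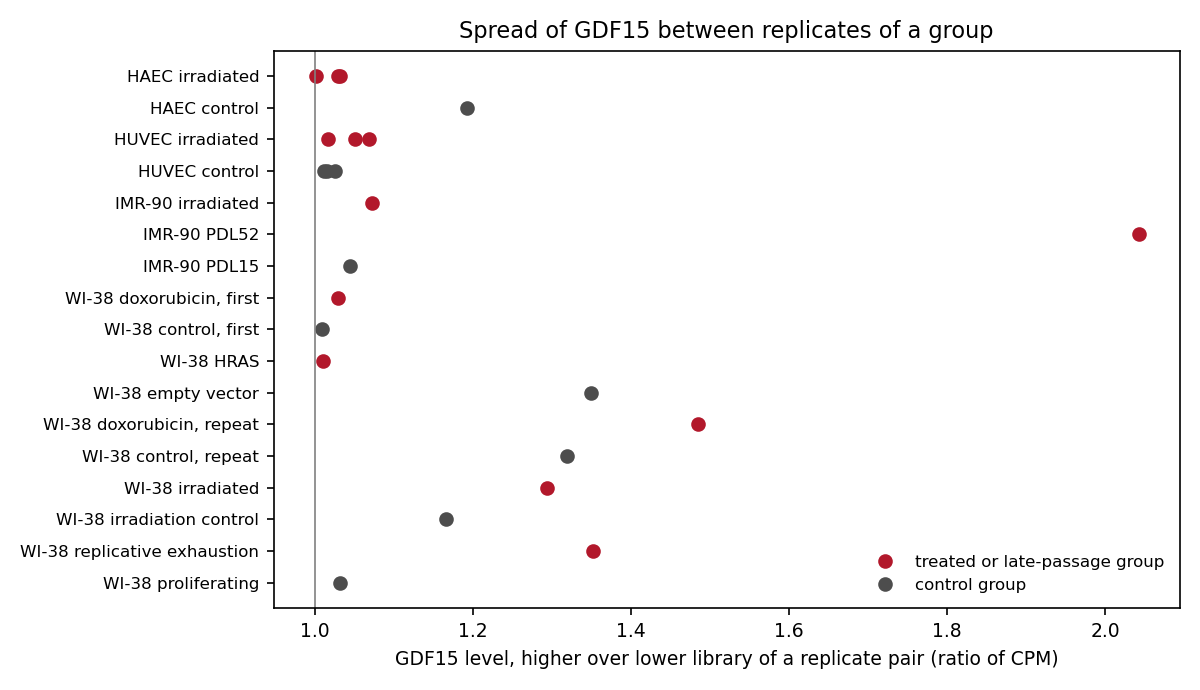
Ratio of the higher to the lower GDF15 level (CPM) in each pair of replicate libraries, by group, with 3 pairs where a group has 3 libraries. The PDL52 pair stands at 2.04, and the next widest, doxorubicin repeat, at 1.48.

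Irradiated IMR-90 cells and PDL52 cells share the PDL15 controls, so a comparison without those libraries was made. GDF15 was 95.8 and 102.8 CPM in irradiated cells, against 30.5 and 14.7 CPM in PDL52 cells, with no overlap. The difference was 2.13 ± 0.22 on the log2 scale (SE, n = 2 each, edgeR adjusted p = 4.58e-05), with 10.6% of genes called and 5.12% called higher. GDF15 ranked 322 of 29274 tested genes in that contrast and 91 of the 1500 called higher. CDKN1A (0.40), MDM2 (0.37) and ATF3, a stress-induced transcription factor (0.78), were higher in irradiated than in PDL52 cells by smaller steps, and all passed the test.

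Ordered by mean level, GDF15 was 1847 ± 12.98 CPM in HRAS cells (SD, n = 2), followed by 115.7 ± 2.36 CPM in the first doxorubicin group and 99.3 ± 4.96 CPM in irradiated IMR-90. Empty vector cells (65.9 ± 13.96 CPM) and irradiated HAEC (62.9 ± 1.11 CPM) overlapped, as did irradiated HUVEC (49.5 ± 1.74 CPM) and irradiated WI-38 (44.9 ± 8.21 CPM). Next stood the first WI-38 control (30.7 ± 0.198 CPM), PDL15 (30.3 ± 0.933 CPM) and HUVEC control (29.2 ± 0.382 CPM), and the first pair of these overlapped. HAEC control (22.999 ± 2.92 CPM), PDL52 (22.6 ± 11.2 CPM), doxorubicin repeat (19.4 ± 5.48 CPM), replicative exhaustion (15.95 ± 3.48 CPM) and the repeat control (14.03 ± 2.82 CPM) overlapped each with the next. Proliferating WI-38 (9.64 ± 0.224 CPM) and the WI-38 irradiation control (7.01 ± 0.815 CPM) came last. The first 3 ranks and the last 7 were the same under 4 other scalings. The IMR-90 PDL15 and first WI-38 control groups, both untreated fibroblasts, differed by 0.0086 (95% interval -0.43 to 0.45, edgeR adjusted p = 0.984) where 40% of genes were called. In the second set, the irradiation control lay -0.52 ± 0.25 from the proliferating control (SE, edgeR adjusted p = 0.155, 19.1% of genes called). The repeat doxorubicin control lay 0.51 ± 0.25 from the proliferating control (SE, edgeR adjusted p = 0.502, 0% of genes called).

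Among the ligands of its family, GDF15 was the most abundant per length in 5 of 17 groups. These were HRAS (884.9 CPM per kilobase of exon), empty vector (31.6), first doxorubicin (55.5), first WI-38 control (14.7) and irradiated IMR-90 (47.6). In HRAS cells it held 91.2% of the summed level of the 29 ligands, against 43.1% in empty vector cells, and ranked 11 of 19250 protein-coding genes, against 789 in empty vector cells. In HAEC and HUVEC the leading ligand was BMP6, a bone morphogenetic protein, at 40.4 to 58.4 CPM per kilobase. In 5 of the 6 groups of the second WI-38 set it was BMP4, at 22.3 to 51.2 CPM per kilobase, and in their irradiation control it was GDF5, a joint-forming factor, at 29.2 CPM per kilobase. Lengths are those of all annotated exons of a gene (2087 bases for GDF15), which is more than its main transcript, so its level per length is a low estimate. The other genes were divided in the same way, so the ranks may lie too high or too low. The 19250 genes ranked exclude those encoded in mitochondria.

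**Figure D4:**
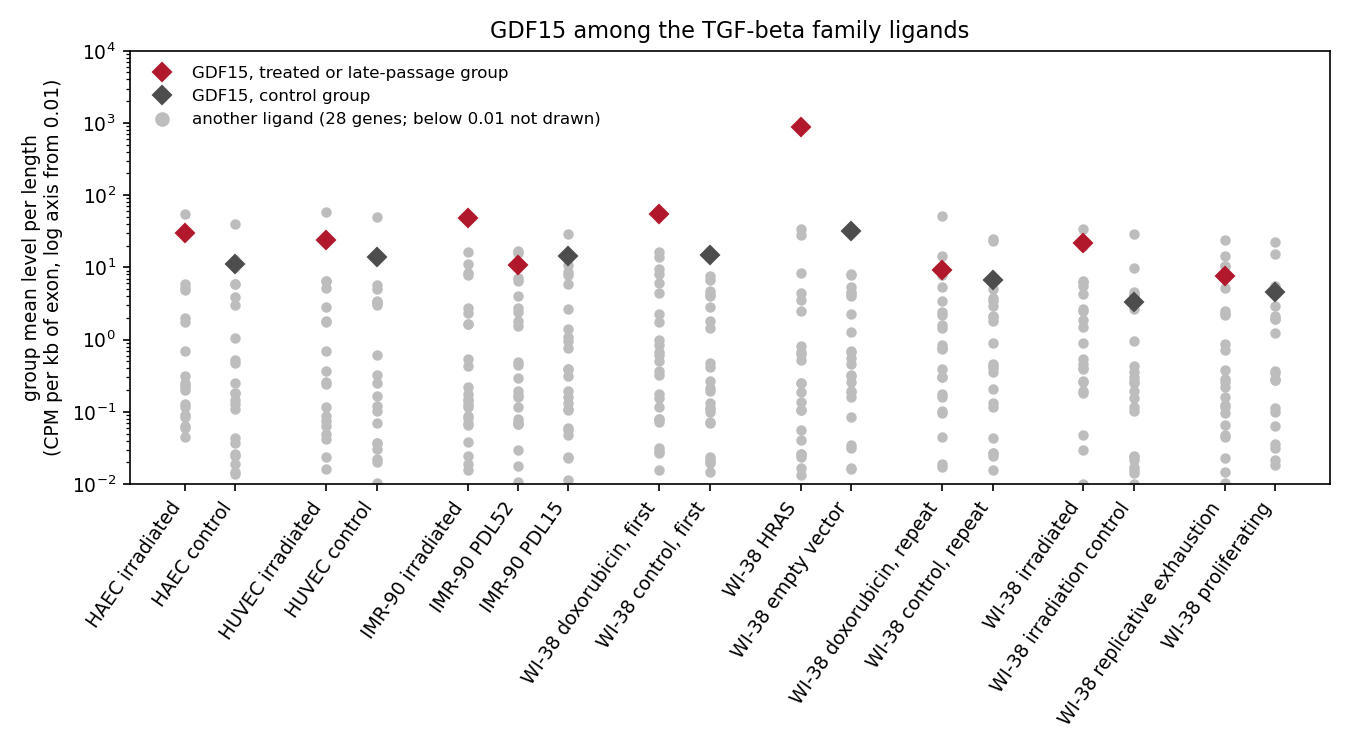
Mean level per kilobase of exon in each group on a log axis, with GDF15 as a diamond and the other 28 ligands of the TGF-beta family as grey points. GDF15 is at 884.9 CPM per kilobase in HRAS cells, and the highest other ligand there, INHBA, is at 34.1.

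The ligand family did not move with GDF15 in 1 direction. As background to the counts of list members, the shares of all tested genes called higher and lower by radiation were 19.7% and 19.9% in HAEC, 18.7% and 20.1% in HUVEC, 26.6% and 22.5% in IMR-90, and 8.89% and 6.09% in WI-38. They were 13.6% and 13.2% with the first doxorubicin treatment, 3.18% and 2.26% with the repeat, and 27.1% and 18.9% with HRAS. In late passage they were 26.6% and 23.5% in PDL52 and 5.8% and 6.82% in replicative exhaustion. Called higher and lower, other than GDF15, were 10 and 1 of 21 tested ligands in irradiated HAEC, 5 and 4 of 19 in irradiated HUVEC, and 8 and 7 of 25 in irradiated IMR-90. The counts were 13 and 1 of 24 with the first doxorubicin treatment, 4 and 11 of 24 with HRAS, and 9 and 1 of 25 in irradiated WI-38. INHBA, the activin A subunit, rose in HRAS cells (log2 fold change 3.24) and in the first doxorubicin group (1.10). TGFB2, a TGF-beta isoform, was called higher in 8 of 9 comparisons and lower in HRAS cells (-0.42), where GDF5 was also lower (-3.11).

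Of the convertases, FURIN rose most in PDL52 (log2 fold change 1.28), where GDF15 was not called, and also in irradiated IMR-90 (1.04) and with HRAS (0.98). PCSK7 rose in PDL52 (2.20) and in irradiated IMR-90 (1.98), and fell with HRAS (-1.74), in irradiated WI-38 (-1.14) and with the first doxorubicin treatment (-0.90). The receptor gene GFRAL had a count of 0 in 30 libraries, which allows at most 0.00809 to 0.0293 CPM at 3 counts per library for counting error only, and 1 to 8 counts in the other 7. RET, its co-receptor, was low throughout, and was higher in HRAS cells (1.33 and 1.79 CPM) than in empty vector cells (0.096 and 0.089 CPM), with a log2 fold change of 4.19.

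CDKN1A, MDM2, TNFRSF10B, FAS and RRM2B were each called higher in 7 of 9 comparisons, the 6 in which GDF15 was and PDL52, where it was not. GADD45A, TIGAR and BTG2 had the same 7 calls, and BTG2 was also called lower in 1 comparison. These genes were named because of that count, so it says nothing of other genes. BAX was called higher in 2 comparisons, and AEN higher in 3 and lower in 3. CDKN1A rose by 0.56 on the log2 scale in irradiated HAEC, 0.89 in HUVEC, 1.82 in IMR-90 and 0.94 in WI-38, and by 1.72 with the first doxorubicin treatment, 2.395 with HRAS and 1.42 in PDL52. MDM2 rose by 0.82, 0.62, 1.22 and 0.87 in the same 4 irradiated cell types, by 1.21 with the first doxorubicin treatment, 0.52 with HRAS and 0.85 in PDL52. The death receptor FAS (1.73) and RRM2B, a ribonucleotide reductase subunit (1.64), were also called higher in PDL52. In the repeat doxorubicin comparison, where GDF15 was not called either, CDKN1A was at 0.091 and MDM2 at 0.39, and neither passed the test.

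Targets of the integrated stress response did not follow GDF15 throughout. ATF4 drives amino acid synthesis and transport genes, and CHOP is encoded by DDIT3. Of 23 tested targets of the pair, 13 rose and 3 fell with the first doxorubicin treatment (7 to 8 rose with 1 library left out) and 11 rose and 5 fell with HRAS. In the 4 radiation comparisons 4 rose and 14 fell in HAEC, 6 rose and 9 fell in HUVEC, 4 rose and 17 fell in IMR-90, and 3 rose and 10 fell in WI-38. Where GDF15 was not called, 4 rose and 17 fell in PDL52, 3 rose and 6 fell in the repeat doxorubicin comparison, and 15 fell in replicative exhaustion. ASNS, asparagine synthetase, fell in irradiated HAEC (log2 fold change -1.24), IMR-90 (-2.39) and WI-38 (-1.29), where GDF15 rose. PHGDH, the first enzyme of serine synthesis, was called lower in 8 of 9 comparisons. DDIT3 rose in irradiated WI-38 (1.10), with HRAS (1.02) and with the first doxorubicin treatment (0.66), and ATF4 transcript was called higher in none of the 9. These RNA counts do not measure ATF4 protein or its activity.

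ATF3, which other stress factors induce, was called higher in 5 of the 6 comparisons in which GDF15 was. The log2 fold changes were 0.97 in irradiated HAEC, 0.59 in irradiated HUVEC, 1.01 in irradiated IMR-90, 2.33 in irradiated WI-38 and 1.53 with the first doxorubicin treatment. With HRAS, where GDF15 rose most, ATF3 was 8.31 and 6.70 CPM in HRAS cells, against 6.34 and 6.82 CPM in empty vector cells, and was not called (0.34, edgeR adjusted p = 0.0982). EGR1, an immediate early factor known to act on GDF15, fell in irradiated IMR-90 (-1.59), in PDL52 (-1.10) and with the first doxorubicin treatment (-1.08), and rose in irradiated WI-38 (1.46) and in replicative exhaustion (1.77).

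**Figure D5:**
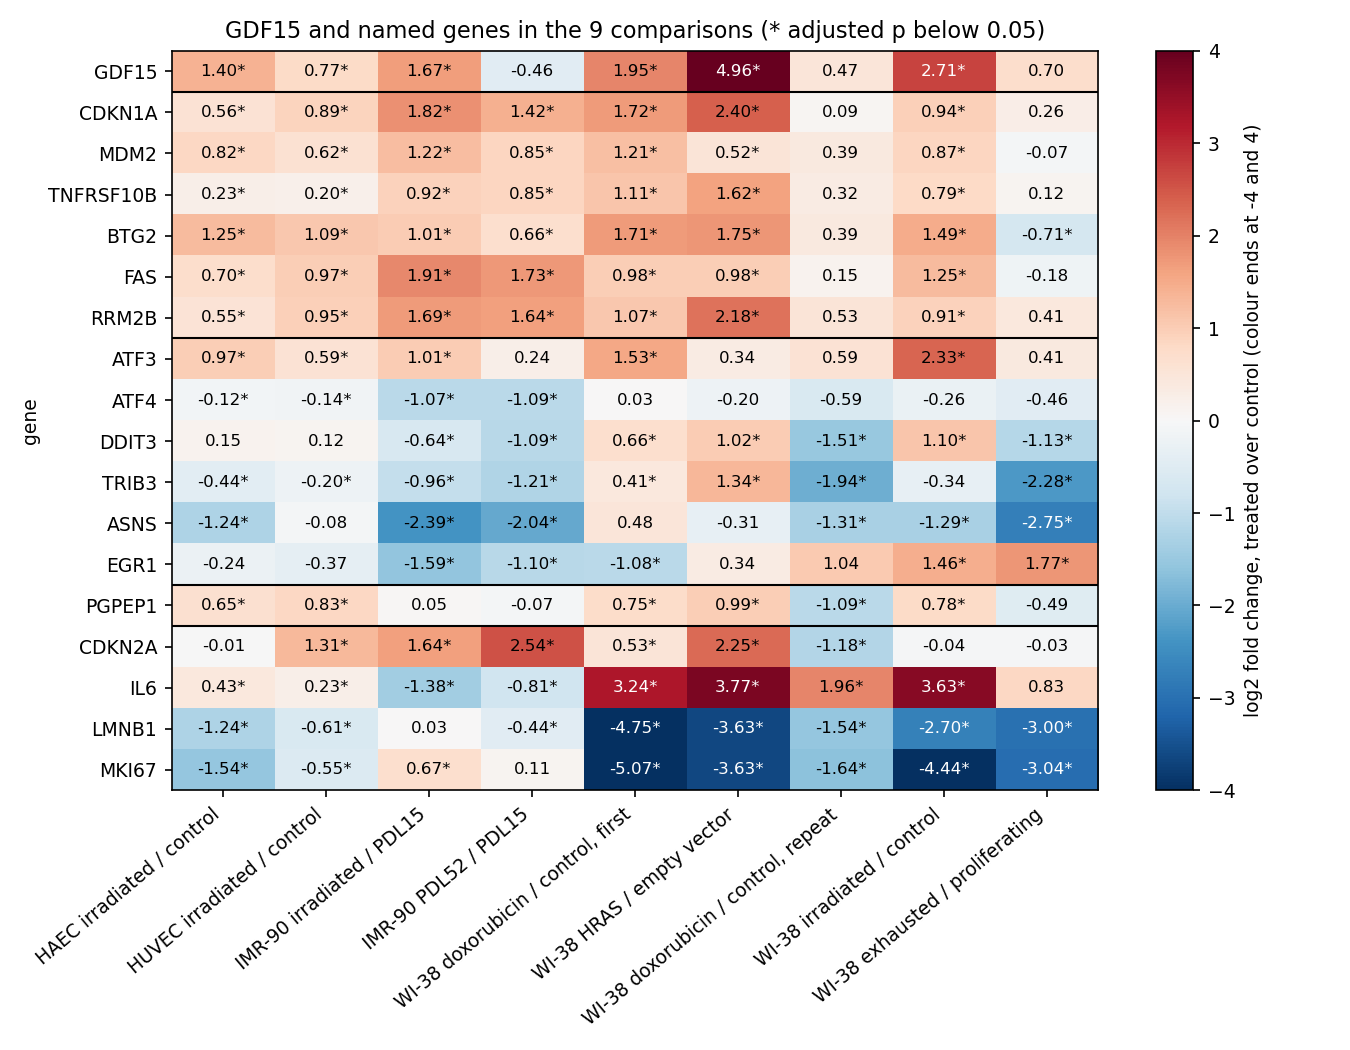
Log2 fold change of GDF15 and 17 named genes (rows) in the 9 comparisons of a treated or late-passage group over its control (columns). Stars mark an adjusted p below 0.05, and in PDL52 the stars stand on CDKN1A (1.42) and MDM2 (0.85) but not on GDF15 (-0.46).

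Cell-division genes did not fall in irradiated IMR-90, where GDF15 rose, although CDKN1A was called higher both there and in PDL52. Of 12 cell-division genes, all fell in irradiated HAEC and HUVEC and with the first doxorubicin treatment, and 11 fell with HRAS and in irradiated WI-38, but 11 rose in irradiated IMR-90 and 8 rose and 1 fell in PDL52. Both IMR-90 comparisons share the PDL15 controls, and 49.1% and 50.1% of genes were called in them. Between irradiated and PDL52 cells 10.6% of genes were called, and the part of the shared controls was not tested. MKI67, the proliferation antigen, changed by -5.07 with the first doxorubicin treatment and by 0.67 in irradiated IMR-90 on the log2 scale. The nuclear lamina gene LMNB1 fell in 8 of 9 comparisons and stood at 0.027 in irradiated IMR-90. IL6, the secreted interleukin, rose with HRAS (3.77), the first doxorubicin treatment (3.24) and radiation in WI-38 (3.63), and fell in irradiated IMR-90 (-1.38). CDKN2A, which encodes the cell cycle inhibitor p16, rose in PDL52 (2.54), where GDF15 did not, and was -0.014 in irradiated HAEC, where GDF15 rose.

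The neighbouring genes did not move as a block with GDF15. The 8 listed neighbours include MIR3189, inside the GDF15 intron, whose counts may be unspliced GDF15 RNA. Of the 8, 4 of 7 tested rose and 2 fell in irradiated HAEC, and 3 of 7 rose and 1 fell in irradiated HUVEC. With the first doxorubicin treatment 1 of 8 rose and 1 fell. Over the 6 comparisons in which GDF15 was called, JUND and ISYNA1 each rose in 2 and fell in 1, and ELL rose in 2 and fell in none. LSM4, an RNA-binding protein gene, fell in irradiated HAEC (log2 fold change -0.56) and HUVEC (-0.25) and rose in irradiated IMR-90 (0.97), in PDL52 (0.75) and with HRAS (0.75). SSBP4 and LRRC25, the nearest gene on the other side, were each called lower in 2 comparisons and higher in none. PGPEP1, which encodes a pyroglutamyl peptidase and lies next to GDF15 on the same strand, rose in 5 of the 6 comparisons in which GDF15 did, with log2 fold changes of 0.65, 0.83, 0.75, 0.99 and 0.78 in irradiated HAEC and HUVEC, the first doxorubicin group, HRAS cells and irradiated WI-38. In irradiated IMR-90 it was 61.7 and 62.3 CPM, against 58.0 and 57.8 CPM in PDL15 cells, a difference that was not called. It fell in the repeat doxorubicin comparison (-1.09).

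Reads at the hairpin of MIR3189, inside the intron, did not keep a fixed ratio to GDF15. Its mature forms, from RefSeq, are shown with the seed, bases 2 to 8, in capitals, since they are the other product the locus is annotated with.
miR-3189-5p: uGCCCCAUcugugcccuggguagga
miR-3189-3p: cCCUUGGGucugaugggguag

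In HAEC the hairpin had 86, 155 and 102 counts in irradiated cells, against 23 and 25 in controls, a log2 fold change of 1.70 that passed the test. In HRAS cells it had 18 and 41 counts, against 29 and 40 in empty vector cells, while GDF15 had 240870 and 200036 counts in HRAS cells, against 8185 and 8479 in empty vector cells. In PDL52 cells it had 5 and 6 counts, against 34 and 56 in PDL15 cells (log2 fold change -3.04, called). Per 1000 GDF15 counts this was 0.0747 and 0.205 in HRAS cells, against 3.54 and 4.72 in empty vector cells. In the second WI-38 set it had 0 to 13 counts a library. Such counts come from fragments of total RNA that cross the hairpin, so they may be unspliced GDF15 RNA and do not measure the mature microRNA.

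The genes whose levels were most like GDF15 differed with the yardstick. Over the 17 group means, among 11516 protein-coding genes, the 5 highest Pearson correlations of log2 CPM were with STARD3, a cholesterol-binding protein of late endosomes (0.93), TEX264, a receptor for selective breakdown of the endoplasmic reticulum (0.92), RETSAT, retinol saturase (0.92), PTDSS2, a phosphatidylserine synthase (0.91), and FLYWCH1 (0.90). STARD3 averaged 58.8 CPM in HRAS cells and 30.8 CPM in empty vector cells. Over the 37 libraries with each set's mean subtracted, they were with ERN1, the stress sensor IRE1 (0.91), SUGCT, a mitochondrial CoA transferase (0.89), ALAS1, the first enzyme of heme synthesis (0.89), TNFRSF10B, a death receptor (0.89), and ABTB2 (0.88). The points share libraries of a set and 1 extreme group. The group means also cross the border between library sets of unlike make-up, and its part in these correlations was not tested. Without the HRAS and empty vector groups, STARD3 stood at 0.83 over the group means, ERN1 at 0.77 over the libraries, and TNFRSF10C, a decoy receptor of the same family, at 0.88. Over those group means STARD3 ranked 9, TEX264 12, RETSAT 4, PTDSS2 10 and FLYWCH1 61. Over those libraries ERN1 ranked 18, SUGCT 25, ALAS1 111, TNFRSF10B 50 and ABTB2 127, and over those group means ERN1 stood at -0.25. With all groups, CDKN1A stood at 0.87 over the set-centred libraries and at 0.065 over the group means.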

How the data were processed

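Total RNA depleted of ribosomal RNA was sequenced in 37 libraries. The deposited values are raw counts per Ensembl gene for 57773 identifiers. Per the submitters' processing notes, bcl2fastq, cutadapt, STAR 2.4, featureCounts and hg19 were used; the sources used here give neither a strand setting nor an annotation release. Symbols were given to 52338 identifiers, from GENCODE 29 and a table of gene names that matched 51996. Library totals of 102293388 to 370996204 counts put 1885 or more counts on GDF15, so counting error was low, though in the closest replicate pairs it was not smaller than their spread.

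Groups came from the labels. Each set of libraries was fitted separately with edgeR 4.0.16 (R 4.3.3), with TMM factors, filterByExpr and the quasi-likelihood test. P-values were adjusted by Benjamini-Hochberg over all genes tested, with a threshold of 0.05, and the SE was taken from the log2 fold change and its F statistic. Differences across sets used 1 fit over both sets. CPM for levels used TMM over all libraries, and log2 CPM a prior count of 2. The fits were tested on simulated counts. Alternatives were other scalings, no filter, DESeq2 1.42.0, the replicate number as a block, other sample choices, and each replicate left out.

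Gene lists and most named genes, among them the genes most like GDF15, followed fixed rules. Some genes, such as PTX3 and BMP2, were named after their values were seen, and not every gene that met a rule is named. The gene and the lists were chosen with earlier results of these data known. Replicate numbers were not taken as pairs, since same-numbered libraries did not deviate together in every comparison. Some genes, and lists and sequences tied to them, are not reported here.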

Additional observations from a re-analysis of the deposited data

Results flagged for a closer look

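The GDF15 radiation response differed between the endothelial cell types. It was 1.40 on the log2 scale in HAEC and 0.77 in HUVEC, a difference of 0.63 ± 0.06 (SE, edgeR adjusted p = 2.02e-08), and every irradiated library lay above its controls in both. With all 37 libraries in 1 fit it was 0.69 and was not called (edgeR adjusted p = 0.264). The GDF15 doxorubicin response differed between the repeat and the first WI-38 experiment, at 0.47 and 1.95, a difference of -1.45 ± 0.30 (SE, edgeR adjusted p = 0.00458). The sets also differ in library make-up, and its part in the difference was not tested. No group held enough libraries to test for a single outlying library, the PDL52 pair included.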

How the results depend on the processing

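Of 299 alternatives over 22 GDF15 results, 272 kept the direction and the side of the threshold, and all 6 calls of higher GDF15 against a control held under every alternative run. The GDF15 log2 fold changes and edgeR or DESeq2 adjusted p-values that changed were as follows, and the cause was not tested. Where 1 of 2 replicates is left out, the lone library is assumed to vary like the other groups. For PDL52 against PDL15 they were -0.66 (0.0168) with library totals, -0.62 (0.0323) with protein-coding totals and -0.45 (5.00e-11) with no filter, and -1.09 to -0.030 with 1 replicate left out. For replicative exhaustion they were 0.70 (0.0330) with no filter, 0.71 (0.0364) with DESeq2, 0.72 (0.0445) with the compared groups only and 0.73 (0.0112) with all 37 libraries, and 0.47 to 0.93 with 1 replicate left out. The WI-38 irradiation control against proliferating cells gave -0.44 (0.0126) with the compared groups only. With all 37 libraries in 1 fit, HAEC against HUVEC control gave -0.34 (0.341) and the HAEC minus HUVEC response 0.69 (0.264). IMR-90 PDL15 against the first WI-38 control turned to -0.018 (0.996) with all 37 libraries, and lay between -0.029 and 0.069 with 1 replicate left out. The WI-38 minus IMR-90 radiation response was 1.17 (0.0387) with library totals, 0.99 (0.00326) with no filter, 1.00 (0.00982) with the compared groups only and 0.97 (0.0146) with all 37 libraries, and 0.78 to 1.15 with 1 replicate left out. The late-passage difference was 1.22 (0.0460) with size factors, 1.44 (0.0190) with library totals, 1.38 (0.0247) with protein-coding totals, 1.21 (2.70e-04) with no filter, 1.22 (0.0199) with DESeq2 and 1.15 (0.00605) with all 37 libraries, and 0.75 to 1.81 with 1 replicate left out.

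The replicate number as a block changed no GDF15 call, giving 4.96 for HRAS, -0.51 (edgeR adjusted p = 0.0529) for PDL52 and 0.69 (0.0890) for replicative exhaustion. With the numbers crossed in replicative exhaustion, 1709 genes were called higher and 2056 lower. Counts of called genes moved by over 1.5 times in 153 of 600 alternatives. With HRAS, 7957 genes were called higher and 5539 lower, and 4686 higher and 8444 lower with protein-coding totals, which shift every gene by -0.36 on the log2 scale.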
